A study of Mus musculus with 6 samples.

Results

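The 40 genes described here encode chaperones, folding enzymes, translocation subunits and degradation factors of the endoplasmic reticulum (ER), together with the stress sensors Ern1 and Atf6 and the transcription factor Xbp1. They were picked by gene symbol, with measured values of these libraries known, from 14667 genes listed in at least 1 of the deposited tables. All 40 were in both tables, and all 40 passed the filter on low values and were tested in each comparison. Derl3 passed it against H3.3WT only through the other group, since it averaged under 1 FPKM in H3.3WT, and Ern1 averaged under 1 FPKM in H3.3K27M. Because the choice used these values, the changes of the 40 genes below are descriptions and carry no p-values. Where a gene is said to pass the threshold, its adjusted p over all genes tested was under 0.05 by limma with Benjamini-Hochberg adjustment.

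RNA was sequenced from NE-4C, a mouse neural stem cell line that was derived from p53-deficient embryonic brain, in 3 groups of 2 libraries. Per the labels, all 3 groups share a knockout of H3f3a, one of the genes for histone H3.3, and each stably expresses an HA-tagged H3.3 protein. The reference group, H3.3WT, carries the wild-type protein. The group named Cbfa2t2_KO carries the wild-type protein too, and its transcriptional corepressor gene Cbfa2t2 is labelled as knocked out too. The group named H3.3K27M carries H3.3 with methionine in place of lysine 27, the substitution known from diffuse midline glioma. All were grown in the same serum-containing medium, and nothing in the labels tells if a group's 2 libraries are from different cultures or from 1 clone. The p-values therefore reflect the scatter of these libraries alone, which may be technical.

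Proteins that enter the ER are threaded through the SEC61 channel, bound by chaperones such as BiP and calreticulin, cross-linked by disulfide isomerases, and retrotranslocated for degradation when they fail to fold. An overload of unfolded protein activates the sensors IRE1, PERK and ATF6. IRE1 splices Xbp1 mRNA to make an active transcription factor, ATF6 is cut in the Golgi to release another, and PERK slows translation while favouring ATF4. Both XBP1 and cleaved ATF6 act on genes of ER folding and degradation, many through the ER stress element, in which the CCAAT end is bound by NF-Y and the CCACG end by ATF6 or XBP1.

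The ER stress elements of these genes are shown because they are the known regulatory sequences of the family. An element was taken as CCAAT, 9 bases of any kind and CCACG on either strand, within 250 bases before to 50 bases after a gene's start in the RefSeq promoter table (GRCm38.p6). Of the 40 genes, 33 had a promoter window there. The genes without one were Manf, Hyou1, Ssr2, Atf6, Derl1, Sec61a1 and Sil1. An exact element stood in the windows of 9 of the 33 genes (27.3%), against 37 of all 27025 genes with a window (0.137%). The shorter second type, ATTGG, 1 base and CCACG, stood in 2 of the 33 (6.06%) and in 12 of all genes (0.0444%). In the sequences that follow, the capitals mark the CCAAT and CCACG ends, and each element is written 5′ to 3′ on its own strand.
Calr, chr8:84847075-84847093, plus strand: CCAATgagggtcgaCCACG
Canx, chr11:50325800-50325818, minus strand: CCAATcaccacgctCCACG
Creld2, chr15:88819520-88819538, minus strand: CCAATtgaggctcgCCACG
Derl3, chr10:75893242-75893260, minus strand: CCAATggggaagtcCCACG
Dnajb11, chr16:22857852-22857862, plus strand: ATTGGcCCACG
Dnajc3, chr14:118937827-118937845, plus strand: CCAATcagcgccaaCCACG
Herpud1, chr8:94386377-94386387, plus strand: ATTGGgCCACG
Hsp90b1, chr10:86705638-86705656, minus strand: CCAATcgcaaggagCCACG
Hsp90b1, chr10:86705533-86705551, plus strand: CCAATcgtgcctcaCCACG
Hspa5, chr2:34772025-34772043, plus strand: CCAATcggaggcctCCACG
Pdia6, chr12:17266491-17266509, plus strand: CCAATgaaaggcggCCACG
Syvn1, chr19:6046532-6046550, plus strand: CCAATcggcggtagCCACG

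Hsp90b1 held a pair of exact elements, in opposite orientations. Dnajb11 and Herpud1 held the shorter type, and that of Dnajb11 lay at bases 8 to 18 after the start. The other elements lay before the start, from 212 bases before it in Hsp90b1 to 26 bases before it in Syvn1. The letters CCACG alone, which overlap both element types, were in 27 of the 33 windows (81.8%) and in 35.5% of all genes. The letters TGACGTGG, a core that XBP1 is known to bind, stood in the windows of Txndc5 and Txndc11 and in 0.714% of all genes. With 1 mismatch allowed in the CCACG end, 14 of the 33 (42.4%) and 1.14% of all genes held an element. A match of this kind describes the letters and was not tested as a binding site.

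**Figure D1:**
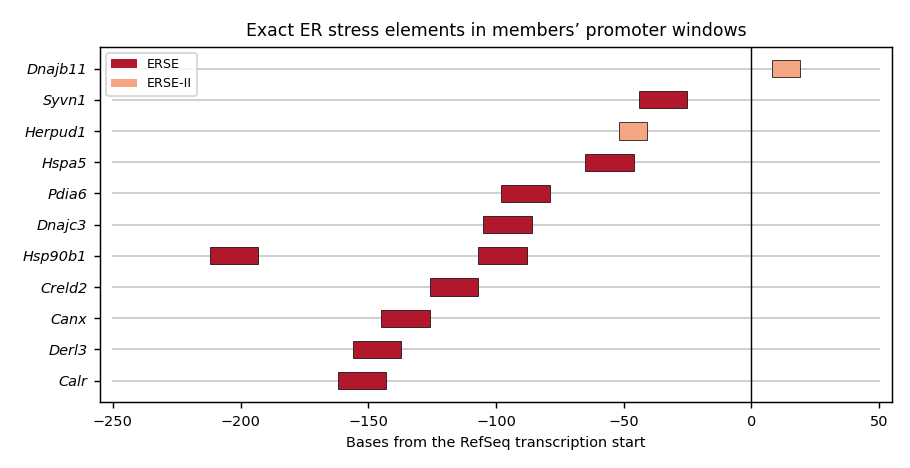
Positions of ER stress elements in the promoter windows of the genes that hold one, in bases relative to the RefSeq start, with the colour of each bar giving the type of element (ERSE for the longer, ERSE-II for the shorter). The 12 elements in 11 genes spread from 212 bases before to 18 bases after the start, and the Dnajb11 element is the one after the start.

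The 170 bases before the start are printed for Hspa5 and Hsp90b1, the genes of the main ER chaperones, and for Derl3 and Sdf2l1, the members with the highest log2 changes in Cbfa2t2_KO. Each reads 5′ to 3′ on the gene's strand, and the capitals mark the ends of exact elements as they read on that strand, so that an element on the other strand appears as CGTGG and ATTGG.
Hspa5, chr2:34771920-34772089, plus strand: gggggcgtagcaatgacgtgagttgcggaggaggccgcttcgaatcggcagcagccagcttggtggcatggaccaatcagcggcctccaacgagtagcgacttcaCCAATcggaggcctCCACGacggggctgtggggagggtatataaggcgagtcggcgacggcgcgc
Hsp90b1, chr10:86705445-86705614, minus strand: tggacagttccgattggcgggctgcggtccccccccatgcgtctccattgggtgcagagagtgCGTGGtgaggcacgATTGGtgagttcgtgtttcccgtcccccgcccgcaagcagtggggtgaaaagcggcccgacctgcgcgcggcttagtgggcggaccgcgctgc
Derl3, chr10:75893228-75893397, plus strand: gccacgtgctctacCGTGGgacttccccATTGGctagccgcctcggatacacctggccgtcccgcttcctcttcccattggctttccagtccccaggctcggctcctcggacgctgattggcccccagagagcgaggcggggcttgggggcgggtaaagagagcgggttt
Sdf2l1, chr16:17132384-17132553, minus strand: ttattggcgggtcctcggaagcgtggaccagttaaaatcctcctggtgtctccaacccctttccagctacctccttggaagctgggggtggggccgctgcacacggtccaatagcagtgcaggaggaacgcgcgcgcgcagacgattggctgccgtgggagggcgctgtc

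The Sdf2l1 stretch has no capitals because its window holds no exact element, although CCACG was found on its opposite strand at 3 places in the window. The Hsp90b1 stretch shows one of its elements, since the other lies farther from the start.

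The libraries were compared as FPKM (fragments scaled to transcript length and to the library's mapped total), the unit in which the tables were deposited. The FPKM of listed genes summed to between 363586 and 419389 per library, read depth is not given, and libraries of the same group correlated across genes at r = 0.984 to 0.988. Cbfa2t2 itself was 1.38 and 1.35 FPKM in H3.3WT, 1.02 and 0.769 in Cbfa2t2_KO and 2.02 and 0.855 in H3.3K27M. Its difference between Cbfa2t2_KO and H3.3WT did not pass (log2 change -0.32 ± 0.16, adjusted p = 0.153 by limma), and a gene-level value can include reads outside an edited exon. H3f3a, labelled as knocked out in all 3 groups, was 131 and 181 FPKM in H3.3WT, 82.1 and 66.3 in Cbfa2t2_KO and 77.3 and 66.8 in H3.3K27M. It was thus measured in every library, and it was lower in Cbfa2t2_KO (-1.05 ± 0.19, adjusted p = 0.00501 by limma) and in H3.3K27M (-1.09 ± 0.20, adjusted p = 0.00708) than in H3.3WT. Whether reads of the introduced H3.3 are part of these values was not tested. Of 14 neural stem and progenitor markers 12 were listed, with Sox2, Sox3, Nes and Msi1 present, Pax6 under 1 FPKM and Sox1 and Fabp7 not listed. In bulk RNA, fewer cells of a type and less RNA per cell cannot be told apart.

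The 40 genes together made up 0.629% and 0.622% of summed FPKM in the H3.3WT libraries, 1.1% and 0.994% in Cbfa2t2_KO and 0.808% and 0.762% in H3.3K27M. In Cbfa2t2_KO 24 of the 40 passed the threshold as higher than H3.3WT and 1, Derl1, as lower, against a background of 34.6% of all genes tested called, 13.1% higher and 21.5% lower. Their median log2 change, on the log2(FPKM + 1) scale used throughout, was 0.698 with a range of -0.635 to 2.39, and the median of all genes tested was -0.11. In H3.3K27M 10 of the 40 passed as higher and 0 as lower, with 26.2% of all genes tested called, 8.42% higher and 17.8% lower. The median here was 0.295 with a range of -0.528 to 1.95, beside -0.12 for all genes. Set directly against Cbfa2t2_KO, H3.3K27M had 9 of the 40 lower and 0 higher, where 7.8% of all genes were called, 4.68% lower and 3.12% higher. That median was -0.35 with a range of -1.70 to 0.258, beside -0.02 for all genes. Over all genes, 1528 were higher and 2500 lower in Cbfa2t2_KO, and 979 higher and 2070 lower in H3.3K27M. With median-of-ratios scaling, which moved the medians of all genes from -0.11 and -0.12 to -0.0013 and 0.0037, these became 2075 and 2030 in Cbfa2t2_KO and 1363 and 1430 in H3.3K27M, and 27 and 14 of the 40 genes were then called higher. The comparisons with H3.3WT use the same reference libraries, so they are not independent of each other. Since these values chose the genes, nothing is read from the counts beyond this description.

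**Figure D2:**
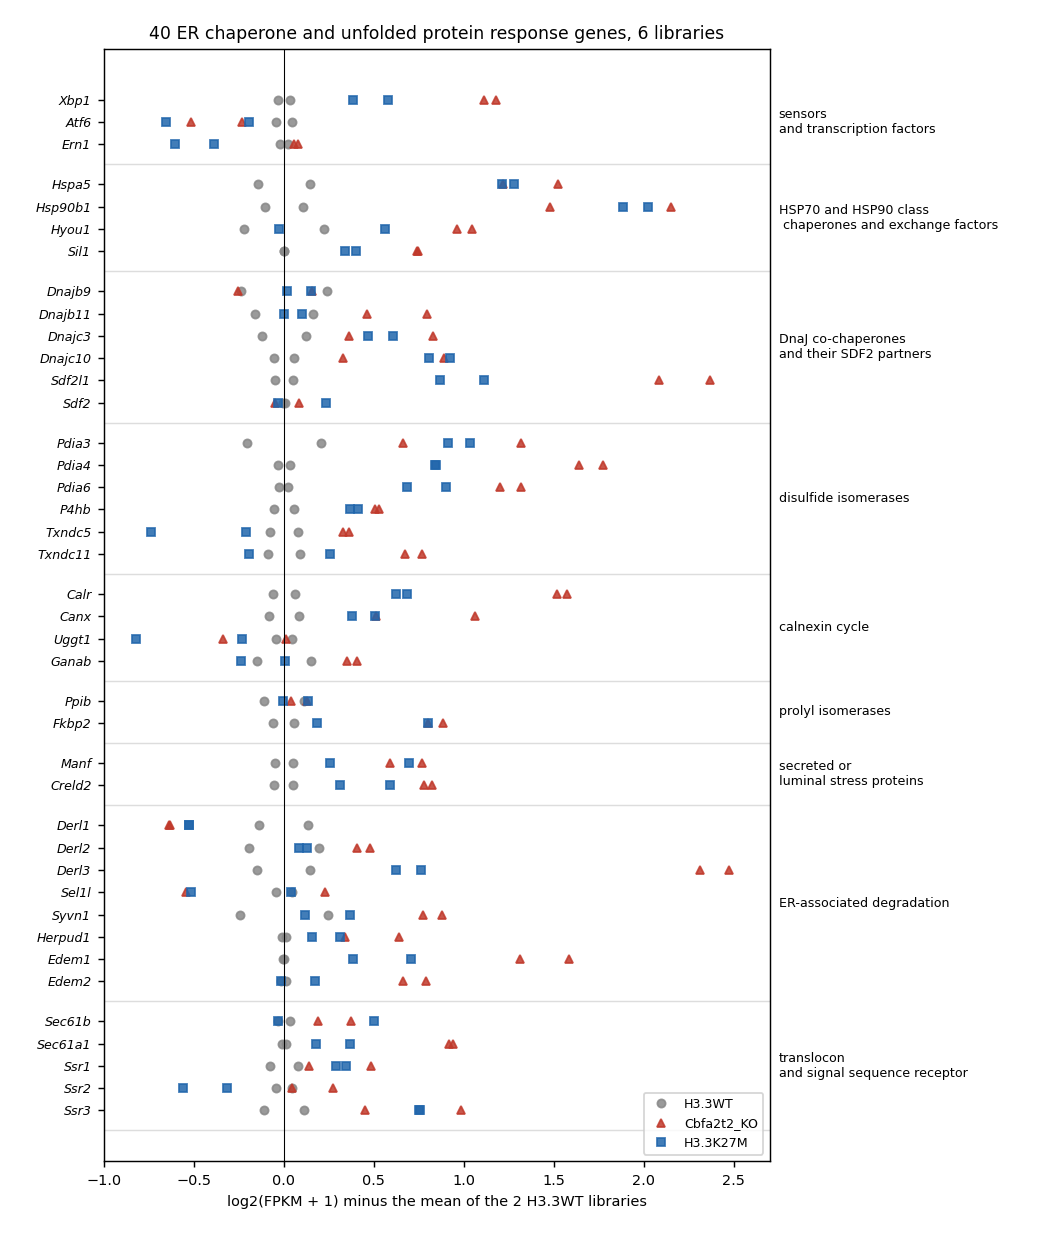
Each row is 1 of the 40 genes, grouped by role, and each point 1 library, placed at its log2(FPKM + 1) minus the mean of the H3.3WT libraries, with circles for H3.3WT, triangles for Cbfa2t2_KO and squares for H3.3K27M. The triangles lie farthest right for Derl3 and Sdf2l1, and the squares for Hsp90b1 and Hspa5.

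The 2 libraries of H3.3WT and the 2 of Cbfa2t2_KO did not overlap for 34 of the 40 genes, and for 70.4% of all genes tested. For H3.3K27M against H3.3WT this held for 28 of the 40, beside 66.3% of all genes. For H3.3K27M against Cbfa2t2_KO it held for 24, beside 58.2%.

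Among the sensors and transcription factors, Xbp1 was 19.0 and 18.1 FPKM in H3.3WT, 41.2 and 43.2 in Cbfa2t2_KO and 24.5 and 28.1 in H3.3K27M. Both Cbfa2t2_KO libraries were above all others, and the H3.3K27M libraries lay between the other groups. Xbp1 (chr11:5520659-5525893 on the plus strand, GRCm38, GENCODE vM21) rose by 1.15 ± 0.13 (SE) on the log2 scale in Cbfa2t2_KO, and the difference of H3.3K27M from Cbfa2t2_KO, -0.67 ± 0.15, also passed. Against H3.3WT the change in H3.3K27M was 0.48 ± 0.17 and did not pass. Gene-level FPKM does not separate spliced from unspliced Xbp1 mRNA.

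Ern1, which encodes the IRE1 sensor, was low in every library, at 1.4 and 1.47 FPKM in H3.3WT, 1.53 and 1.58 in Cbfa2t2_KO and 0.86 and 0.604 in H3.3K27M. The H3.3K27M libraries were the lowest and the Cbfa2t2_KO libraries the highest, and none of its changes passed (0.07 ± 0.16 in Cbfa2t2_KO, -0.50 ± 0.17 in H3.3K27M). Atf6, whose product is the membrane-bound precursor of the ATF6 factor, was 5.79 and 5.38 FPKM in H3.3WT, 4.6 and 3.61 in Cbfa2t2_KO and 4.76 and 3.19 in H3.3K27M. Its H3.3WT values were above the other 4, yet its changes of -0.37 ± 0.18 in Cbfa2t2_KO and -0.42 ± 0.21 in H3.3K27M did not pass. Of the 3 genes, Xbp1 alone passed in any comparison.

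All 4 chaperones and exchange factors of the HSP70 and HSP90 class rose in Cbfa2t2_KO, and 2 of them, Hspa5 and Hsp90b1, also in H3.3K27M. The shares of all genes tested that were higher in these groups were 13.1% and 8.42%. Hspa5, which encodes BiP, the HSP70 chaperone that also holds the stress sensors inactive, was 88.5 and 109 FPKM in H3.3WT, 284 and 229.7 in Cbfa2t2_KO and 229 and 239 in H3.3K27M. Every library of the other groups was more than 2-fold above both H3.3WT values, and the Cbfa2t2_KO and H3.3K27M ranges overlapped. Its log2 changes were 1.37 ± 0.17 in Cbfa2t2_KO and 1.25 ± 0.18 in H3.3K27M. The H3.3K27M value differed from that of Cbfa2t2_KO by -0.13 ± 0.17, which did not pass.

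Hsp90b1, encoding GRP94, the ER member of the HSP90 family, was 37.8 and 32.6 FPKM in H3.3WT, 159 and 99.9 in Cbfa2t2_KO and 133 and 146 in H3.3K27M. The Cbfa2t2_KO libraries were far apart and spanned the H3.3K27M pair, while the H3.3WT libraries were well below both. It had the highest log2 change of the 40 genes in H3.3K27M (1.95 ± 0.17), beside 1.82 ± 0.22 in Cbfa2t2_KO. Hspa5 lies at chr2:34771970-34777547 and Hsp90b1 at chr10:86690209-86705509 in GRCm38.

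Hyou1, an HSP110-type exchange factor for BiP, was 50.9 and 37.0 FPKM in H3.3WT, 90.7 and 85.4 in Cbfa2t2_KO and 64.5 and 42.7 in H3.3K27M. Its Cbfa2t2_KO values stood apart from the rest, but one H3.3K27M library fell within the H3.3WT range. It rose by 1.00 ± 0.17 in Cbfa2t2_KO, and the H3.3K27M change was 0.27 ± 0.24. Sil1, another exchange factor, was 8.44 and 8.42 FPKM in H3.3WT, 14.8 and 14.8 in Cbfa2t2_KO and 11.4 and 10.9 in H3.3K27M. The 3 groups did not overlap for Sil1, which rose in Cbfa2t2_KO (0.74 ± 0.15) and was not called in H3.3K27M (0.37 ± 0.17).

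**Figure D3:**
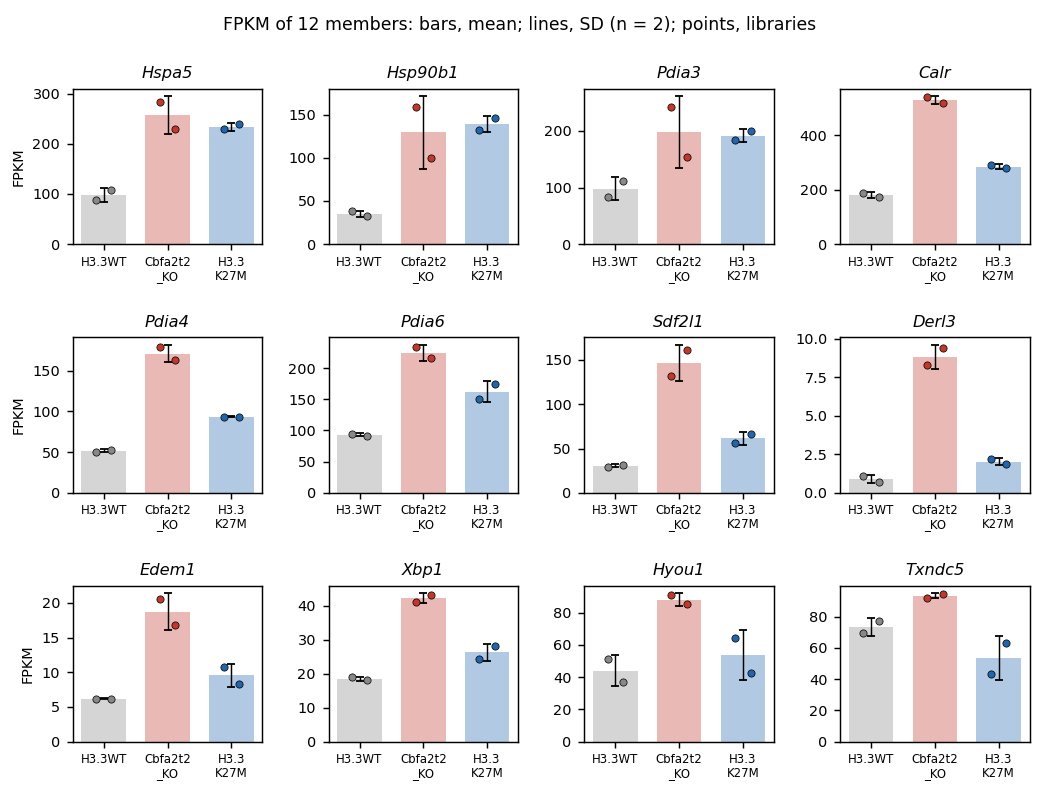
FPKM of 12 of the genes in the 3 groups, each panel with its own axis from 0, with bars for the mean, lines for the SD (n = 2) and 1 point per library. Sdf2l1, Derl3, Edem1 and Xbp1 were highest in both Cbfa2t2_KO libraries, whereas for Hspa5, Hsp90b1 and Pdia3 the Cbfa2t2_KO and H3.3K27M points overlapped or lay close.

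Among the DnaJ co-chaperones and their SDF2 partners, 2 of 6 rose in Cbfa2t2_KO (Sdf2l1 and Dnajb11) and 2 of 6 in H3.3K27M (Sdf2l1 and Dnajc10). These counts stand beside 13.1% and 8.42% of all genes tested that were higher in the same groups. Sdf2l1, a luminal partner of ER DnaJ proteins, was 29.3 and 31.5 FPKM in H3.3WT, 132 and 161 in Cbfa2t2_KO and 56.3 and 66.8 in H3.3K27M. All 3 groups were separate, with Cbfa2t2_KO highest and H3.3WT lowest. The mean ratio to H3.3WT was 4.82 in Cbfa2t2_KO and 2.02 in H3.3K27M, with log2 changes of 2.23 ± 0.15 and 0.99 ± 0.17. The difference of H3.3K27M from Cbfa2t2_KO was -1.24 ± 0.16, which passed. Its paralog Sdf2 was 84.0 and 83.2 FPKM in H3.3WT, 80.9 and 88.6 in Cbfa2t2_KO and 81.8 and 98.4 in H3.3K27M. Those libraries overlapped in every pair of groups, and the Sdf2 changes were 0.02 ± 0.13 and 0.10 ± 0.17.

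Dnajb11, the BiP co-chaperone ERdj3, was 26.1 and 32.9 FPKM in H3.3WT, 51.5 and 40.6 in Cbfa2t2_KO and 29.2 and 31.4 in H3.3K27M. It was highest in the Cbfa2t2_KO libraries (0.63 ± 0.17), and the H3.3K27M pair lay inside the H3.3WT range. Dnajc10, the ERdj5 reductase, was 7.83 and 8.54 FPKM in H3.3WT, 16.0 and 10.5 in Cbfa2t2_KO and 16.4 and 15.02 in H3.3K27M. H3.3WT was lowest throughout, one Cbfa2t2_KO library sat near it, and the change passed in H3.3K27M (0.86 ± 0.17) but not in Cbfa2t2_KO (0.61 ± 0.21). Whether those changes differ was tested directly, and the difference of 0.26 ± 0.20 did not pass. Dnajc3 (p58IPK) and Dnajb9 (ERdj4) passed in no comparison, with changes of 0.59 ± 0.21 and -0.05 ± 0.23 in Cbfa2t2_KO.

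Disulfide isomerases form and rearrange the disulfide bonds of proteins in the lumen. Of the 6, 5 rose in Cbfa2t2_KO and 3 in H3.3K27M, beside 13.1% and 8.42% of all genes tested. Pdia4 was 50.5 and 52.9 FPKM in H3.3WT, 179 and 164 in Cbfa2t2_KO and 93.8 and 93.1 in H3.3K27M. Its 3 groups were separate and each pair of libraries was tight. The log2 changes were 1.71 ± 0.13 in Cbfa2t2_KO and 0.84 ± 0.16 in H3.3K27M, and the direct difference of -0.86 ± 0.14 passed.

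Pdia6 was 94.7 and 91.5 FPKM in H3.3WT, 234 and 216 in Cbfa2t2_KO and 150.2 and 174 in H3.3K27M. The order of its groups matched that of Pdia4, with changes of 1.26 ± 0.13 in Cbfa2t2_KO and 0.79 ± 0.17 in H3.3K27M, but the direct difference of -0.47 ± 0.15 did not pass. Pdia3, or ERp57, the isomerase that works with calnexin and calreticulin, was 83.9 and 112 FPKM in H3.3WT, 243 and 154 in Cbfa2t2_KO and 183 and 199.5 in H3.3K27M. One Cbfa2t2_KO library was below both H3.3K27M libraries and the other above them. Pdia3 rose by 0.99 ± 0.23 in Cbfa2t2_KO and by 0.97 ± 0.19 in H3.3K27M.

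P4hb, the abundant founding member PDI, was the highest of the 40 genes in H3.3WT, at 351 and 324 FPKM in H3.3WT, 479 and 487 in Cbfa2t2_KO and 449 and 435 in H3.3K27M. It rose in Cbfa2t2_KO (0.52 ± 0.14) and was not called in H3.3K27M (0.39 ± 0.18), although all 4 libraries lay above H3.3WT. Txndc11 was 4.15 and 3.55 FPKM in H3.3WT, 6.71 and 7.23 in Cbfa2t2_KO and 4.77 and 3.24 in H3.3K27M. Its Cbfa2t2_KO libraries stood above all others (0.72 ± 0.17). Txndc5, or ERp46, was 69.3 and 77.4 FPKM in H3.3WT, 92.1 and 94.3 in Cbfa2t2_KO and 43.4 and 63.2 in H3.3K27M. Both Cbfa2t2_KO libraries were above and both H3.3K27M libraries below the H3.3WT pair. Neither change from H3.3WT passed (0.34 ± 0.13 and -0.48 ± 0.21), but the direct difference of -0.82 ± 0.19 did.

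In the calnexin cycle, which retains glycoproteins until they are folded, Calr and Canx rose in Cbfa2t2_KO and Calr in H3.3K27M. Calr, encoding calreticulin, was 188 and 173 FPKM in H3.3WT, 539.6 and 518 in Cbfa2t2_KO and 291 and 279 in H3.3K27M. No groups overlapped, and its Cbfa2t2_KO values were the highest FPKM of the 40 genes in any library. The changes were 1.55 ± 0.14 in Cbfa2t2_KO, 0.66 ± 0.17 in H3.3K27M and -0.89 ± 0.15 between those groups, and all 3 passed. Canx, encoding the membrane-bound calnexin, was 63.3 and 71.3 FPKM in H3.3WT, 141 and 96.2 in Cbfa2t2_KO and 95.7 and 87.7 in H3.3K27M. One Cbfa2t2_KO library was far above the other, which was close to H3.3K27M. Canx passed in Cbfa2t2_KO (0.79 ± 0.19) and not in H3.3K27M (0.44 ± 0.17).

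Uggt1, the glucosyltransferase that returns misfolded glycoproteins to the cycle, and Ganab, the glucosidase II catalytic subunit, passed in no comparison. Their changes were -0.16 ± 0.17 and 0.38 ± 0.15 in Cbfa2t2_KO and -0.53 ± 0.22 and -0.12 ± 0.19 in H3.3K27M. One H3.3K27M library of Uggt1 was well below the other, at 9.3 and 14.5 FPKM.

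Of the prolyl isomerases, Fkbp2 was 63.9 and 58.9 FPKM in H3.3WT, 108 and 114 in Cbfa2t2_KO and 69.9 and 108 in H3.3K27M. It rose in Cbfa2t2_KO (0.84 ± 0.13), and the H3.3K27M libraries spread from near H3.3WT to the Cbfa2t2_KO level (0.49 ± 0.22). Ppib, encoding cyclophilin B, was 85.04 and 72.7 FPKM in H3.3WT, 80.8 and 86.0 in Cbfa2t2_KO and 78.5 and 86.3 in H3.3K27M. Its libraries overlapped in every pair of groups, and the changes were 0.08 ± 0.14 and 0.06 ± 0.17. Manf and Creld2, small luminal proteins that are secreted under ER stress, both rose in Cbfa2t2_KO. Manf was 50.1 and 53.9 FPKM in H3.3WT, 78.8 and 89.1 in Cbfa2t2_KO and 62.3 and 84.9 in H3.3K27M. Creld2 was 95.3 and 88.5 FPKM in H3.3WT, 158 and 163 in Cbfa2t2_KO and 114 and 139 in H3.3K27M. In both genes every library of the other groups was above H3.3WT, with changes of 0.68 ± 0.14 and 0.80 ± 0.13 in Cbfa2t2_KO and of 0.48 ± 0.19 and 0.45 ± 0.18, which did not pass, in H3.3K27M.

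ER-associated degradation (ERAD) returns misfolded proteins to the cytosol for the proteasome. Of its 8 members, 5 were higher and 1 lower in Cbfa2t2_KO, and 1, Derl3, was higher in H3.3K27M. Among all genes tested, 13.1% were higher and 21.5% lower in Cbfa2t2_KO, and 8.42% and 17.8% in H3.3K27M. Derl3 averaged under 1 FPKM in H3.3WT and passed the filter against it only through the other group. The Derlin paralogs of ERAD differed among themselves. Derl3, a channel-like factor known from secretory tissues, was 1.07 and 0.689 FPKM in H3.3WT, 8.29 and 9.38 in Cbfa2t2_KO and 2.18 and 1.88 in H3.3K27M. The groups were separate, and the H3.3WT values were low, with a mean of 0.88 FPKM. The mean ratio to H3.3WT was 10.0 in Cbfa2t2_KO and 2.31 in H3.3K27M, and the log2 changes of 2.39 ± 0.19 and 0.69 ± 0.19 passed, as did the direct difference of -1.70 ± 0.18. The log2(FPKM + 1) scale understates changes of a gene this low.

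Derl1, the widely expressed Derlin, was 59.4 and 71.9 FPKM in H3.3WT, 41.8 and 41.6 in Cbfa2t2_KO and 45.1 and 45.0 in H3.3K27M. Both other groups were below H3.3WT and close to each other. It fell by 0.64 ± 0.14 in Cbfa2t2_KO and was the member called lower there, while its H3.3K27M change of -0.53 ± 0.17 did not pass. Derl2 was 3.12 and 2.15 FPKM in H3.3WT, 4.02 and 3.78 in Cbfa2t2_KO and 2.83 and 2.95 in H3.3K27M. Its Cbfa2t2_KO libraries were highest, but its changes of 0.44 ± 0.19 and 0.11 ± 0.20 did not pass.

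Edem1, which extracts misfolded glycoproteins from the calnexin cycle, was 6.18 and 6.2 FPKM in H3.3WT, 20.6 and 16.9 in Cbfa2t2_KO and 10.7 and 8.37 in H3.3K27M. Its groups were separate, with Cbfa2t2_KO highest. Edem1 rose by 1.45 ± 0.16 in Cbfa2t2_KO, was not called in H3.3K27M (0.54 ± 0.19), and was lower in H3.3K27M than in Cbfa2t2_KO (difference -0.91 ± 0.18). Its paralog Edem2 was 11.7 and 11.9 FPKM in H3.3WT, 19.2 and 21.1 in Cbfa2t2_KO and 13.4 and 11.7 in H3.3K27M. The H3.3K27M pair lay around the H3.3WT pair, and the changes were 0.73 ± 0.15, 0.08 ± 0.17 and -0.65 ± 0.16 in the same order, of which the first and the last passed.

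Syvn1, the ERAD ubiquitin ligase HRD1, was 19.7 and 13.8 FPKM in H3.3WT, 28.9 and 31.1 in Cbfa2t2_KO and 21.5 and 17.9 in H3.3K27M. It was highest in Cbfa2t2_KO (0.83 ± 0.18), and the H3.3K27M and H3.3WT libraries overlapped. Sel1l, the adaptor of the same ligase, was 14.3 and 15.3 FPKM in H3.3WT, 17.4 and 9.8 in Cbfa2t2_KO and 15.2 and 10.0 in H3.3K27M. It varied as much within Cbfa2t2_KO and H3.3K27M as between groups, and no change passed (-0.16 ± 0.24 in Cbfa2t2_KO). Herpud1, a scaffold of the ligase complex, rose in Cbfa2t2_KO by 0.49 ± 0.15 and had 0.24 ± 0.16 in H3.3K27M.

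At the translocon, Sec61a1, the channel-forming subunit, was 50.9 and 51.6 FPKM in H3.3WT, 97.9 and 99.3 in Cbfa2t2_KO and 66.5 and 58.1 in H3.3K27M. The groups were separate, with Cbfa2t2_KO nearly 2-fold above H3.3WT. It rose by 0.93 ± 0.13 in Cbfa2t2_KO, and H3.3K27M was lower than Cbfa2t2_KO (difference -0.66 ± 0.14). Ssr3, a subunit of the translocon-associated TRAP complex, was 37.4 and 43.8 FPKM in H3.3WT, 81.1 and 55.6 in Cbfa2t2_KO and 68.9 and 68.9 in H3.3K27M. H3.3WT was lowest, and Ssr3 passed in both groups (0.72 ± 0.19 and 0.75 ± 0.16). Sec61b, Ssr1 and Ssr2 passed in no comparison, with changes from 0.16 to 0.31 in Cbfa2t2_KO and from -0.44 to 0.32 in H3.3K27M.

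The 9 genes called lower in H3.3K27M than in Cbfa2t2_KO were, from the largest difference, Derl3, Sdf2l1, Edem1, Calr, Pdia4, Txndc5, Xbp1, Sec61a1 and Edem2. Just inside the threshold stood Edem2 and Sec61a1 (-0.65 ± 0.16 and -0.66 ± 0.14), while Hyou1 (-0.74 ± 0.22) and Txndc11 (-0.69 ± 0.20), with changes of at least their size, did not pass. Hspa5, Hsp90b1, Pdia3, Ssr3 and Dnajc10 had direct differences from -0.13 to 0.26, none of which passed. A difference that does not pass does not show equal levels.

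**Figure D4:**
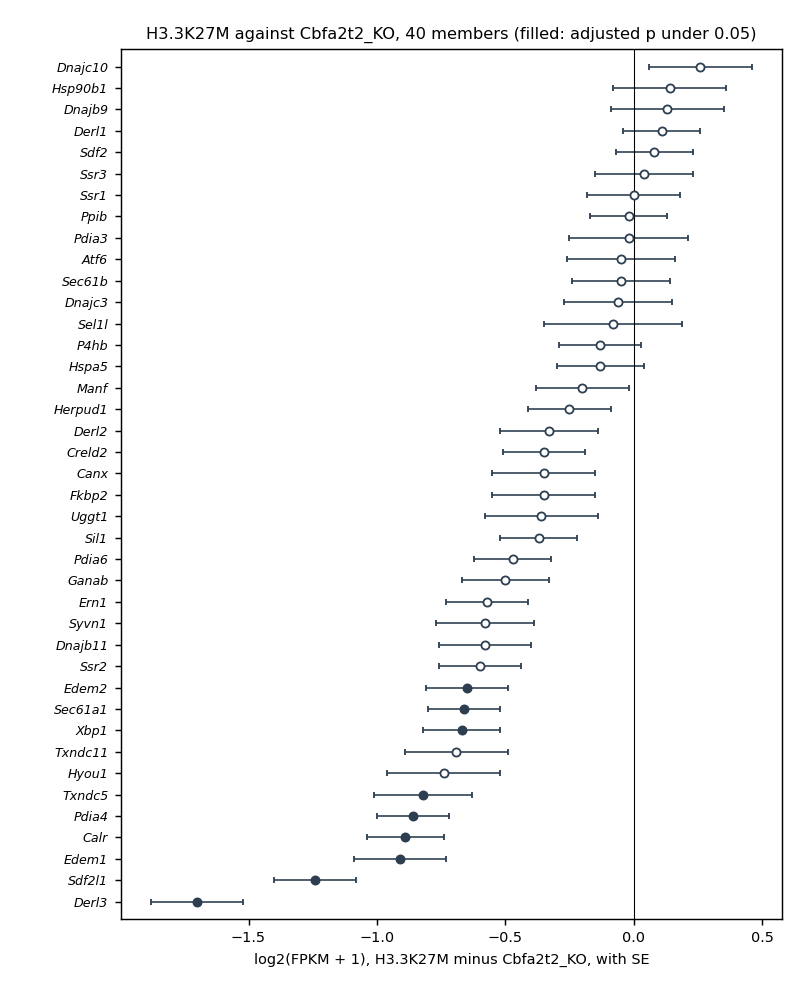
Log2 difference between H3.3K27M and Cbfa2t2_KO for each of the 40 genes, with bars of 1 standard error from the fit of all 6 libraries, and filled points for those past the threshold. The 9 filled points all lie below 0, from -1.70 for Derl3 upward.

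Replicate spread bears on several of these calls. In H3.3WT 0 of the 40 genes differed by more than 0.5 on the log2 scale between its libraries, against 6 in Cbfa2t2_KO and 6 in H3.3K27M. Over all genes the shares past this gap were 8%, 9.08% and 13.4% in the same order. In Cbfa2t2_KO these were Hsp90b1, Canx, Pdia3, Dnajc10, Sel1l and Ssr3, all higher in replicate 1. In H3.3K27M they were Hyou1, Sel1l and Uggt1, higher in replicate 1, and Sec61b, Fkbp2 and Txndc5, higher in replicate 2. Of the 25 calls in Cbfa2t2_KO, 13 held under every alternative setting that did not ask for a minimum fold change. Without Cbfa2t2_KO replicate 1, the log2 changes that no longer passed were 0.51 for Canx, 0.66 for Pdia3, 0.53 for P4hb, 0.46 for Dnajb11, -0.64 for Derl1, 0.88 for Syvn1, 0.45 for Ssr3 and 0.77 for Txndc11. Without Cbfa2t2_KO replicate 2, they were 0.51 for P4hb, 0.79 for Dnajb11, 0.59 for Manf, -0.63 for Derl1, 0.77 for Syvn1, 0.34 for Herpud1, 0.66 for Edem2 and 0.67 for Txndc11. Without H3.3WT replicate 1, the log2 changes that no longer passed were 0.70 for Canx, 0.78 for Pdia3, 0.57 for P4hb, 0.47 for Dnajb11, 0.50 for Herpud1 and 0.61 for Ssr3. Without H3.3WT replicate 2, they were 0.46 for P4hb, -0.50 for Derl1, 0.58 for Syvn1, 0.48 for Herpud1 and 0.63 for Txndc11.

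In H3.3K27M against H3.3WT 3 of the 10 calls, those of Hspa5, Hsp90b1 and Sdf2l1, held under all of those settings. The number of genes called higher was 3 without H3.3WT replicate 1 and 4 without H3.3WT replicate 2. Without H3.3K27M replicate 1, the log2 changes that no longer passed were 0.62 for Derl3. Without H3.3K27M replicate 2, they were 0.76 for Derl3. Without H3.3WT replicate 1, the log2 changes that no longer passed were 0.72 for Calr, 0.77 for Pdia3, 0.81 for Pdia4, 0.82 for Pdia6, 0.81 for Dnajc10, 0.84 for Derl3 and 0.64 for Ssr3. Without H3.3WT replicate 2, they were 0.59 for Calr, 0.88 for Pdia4, 0.77 for Pdia6, 0.92 for Dnajc10, 0.55 for Derl3 and 0.86 for Ssr3.

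In H3.3K27M against Cbfa2t2_KO 0 of the 9 calls held under all of those settings, and 1 was left without Cbfa2t2_KO replicate 2. Derl3 kept its call whichever library was left out. Without Cbfa2t2_KO replicate 1, the log2 changes that no longer passed were -0.86 for Calr, -0.80 for Pdia4, -0.70 for Xbp1, -0.77 for Edem1, -0.71 for Edem2, -0.67 for Sec61a1 and -0.84 for Txndc5. Without Cbfa2t2_KO replicate 2, they were -0.92 for Calr, -0.93 for Pdia4, -1.10 for Sdf2l1, -0.63 for Xbp1, -1.04 for Edem1, -0.58 for Edem2, -0.65 for Sec61a1 and -0.80 for Txndc5. Without H3.3K27M replicate 1, the log2 changes that no longer passed were -0.57 for Xbp1 and -0.55 for Txndc5. Without H3.3K27M replicate 2, they were -0.86 for Calr, -0.76 for Xbp1, -0.74 for Edem1, -0.55 for Edem2 and -0.56 for Sec61a1. Without H3.3WT replicate 1, the log2 changes that no longer passed were -0.67 for Xbp1, -0.65 for Edem2, -0.66 for Sec61a1 and -0.82 for Txndc5. Without H3.3WT replicate 2, they were -0.67 for Xbp1, -0.65 for Edem2, -0.66 for Sec61a1 and -0.82 for Txndc5.

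Over all genes tested, 13.1% were higher in Cbfa2t2_KO and 8.42% in H3.3K27M. The 40 were picked with these values known, so counts within them are descriptions. Whether the element bears on the changes was not tested. The genes with an exact ER stress element were described beside the others. Of the 9, 8 passed as higher in Cbfa2t2_KO (Dnajc3 did not), with a median log2 change of 1.26 and a range of 0.594 to 2.39. Of the 24 with a window and no exact element, 12 passed as higher, with a median of 0.504. In H3.3K27M the counts were 5 of 9, with a median of 0.656, and 5 of 24, with a median of 0.172. Between H3.3K27M and Cbfa2t2_KO the medians of -0.351 and -0.342 were close to each other. Outside the 40 genes, 9 listed genes held an exact element and 8 were tested in each comparison. Of these 0 passed as higher or lower in H3.3K27M. Adcy3, an adenylyl cyclase gene, rose in Cbfa2t2_KO (log2 change 0.63 ± 0.17, adjusted p = 0.0233 by limma) and was lower in H3.3K27M than there (-0.77 ± 0.18, adjusted p = 0.0389). Ero1lb, an ER oxidase gene, was 0.399 and 0.733 FPKM in H3.3WT, 1.69 and 1.18 in Cbfa2t2_KO and 0.98 and 1.1 in H3.3K27M. It averaged under 1 FPKM in H3.3WT and passed the filter against H3.3WT only through Cbfa2t2_KO. Derl3, one of the 9 above, did so too, and it is in their counts and gives the 2.39 of their range. With Ero1lb counted in the same way, 2 of the 8 tested genes outside the 40 were higher in Cbfa2t2_KO. Adcy3 and Ero1lb are named after their values were seen.

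Most of the 17 genes listed for the PERK and ATF4 branch, which are outside the 40, were lower in both groups. Of the 17, 11 fell and 2 rose in Cbfa2t2_KO (median log2 change -1.08), and 10 fell and 2 rose in H3.3K27M (median -0.823). Nupr1, one of those that fell in Cbfa2t2_KO, averaged under 1 FPKM there and passed the filter through H3.3WT. Over all genes tested, 13.1% were higher and 21.5% lower in Cbfa2t2_KO, and 8.42% higher and 17.8% lower in H3.3K27M. Adjusted p-values from here on are by limma over all genes tested. The lists were written with earlier results of these data known, so these p-values describe the genes and give no independent support. Atf4, which encodes the factor whose translation PERK favours, was 490.1 and 544 FPKM in H3.3WT, 234 and 254 in Cbfa2t2_KO and 326 and 396 in H3.3K27M. It fell in Cbfa2t2_KO (-1.08 ± 0.14, adjusted p = 0.00165), and the H3.3K27M libraries were intermediate (-0.52 ± 0.20, adjusted p = 0.0843). Trib3, an ATF4 target, was 240.1 and 262 FPKM in H3.3WT, 72.1 and 84.0 in Cbfa2t2_KO and 64.2 and 71.9 in H3.3K27M. It was lower in all 4 libraries of the other groups (-1.67 ± 0.14, adjusted p = 0.000435 in Cbfa2t2_KO and -1.87 ± 0.17, adjusted p = 0.00105 in H3.3K27M).

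Ddit3, encoding CHOP, was 37.9 and 54.5 FPKM in H3.3WT, 32.5 and 33.4 in Cbfa2t2_KO and 16.6 and 25.1 in H3.3K27M. Its fall passed in H3.3K27M (-1.12 ± 0.24, adjusted p = 0.0129) and not in Cbfa2t2_KO (-0.45 ± 0.18, adjusted p = 0.0875), and the direct difference did not pass (-0.67 ± 0.23, adjusted p = 0.0968). Cebpb, a bZIP gene of the same list, fell in both groups (-1.53 ± 0.18, adjusted p = 0.0013 in Cbfa2t2_KO and -1.14 ± 0.20, adjusted p = 0.00573 in H3.3K27M), as did Cebpg (-1.51 ± 0.22, adjusted p = 0.00223 and -1.52 ± 0.22, adjusted p = 0.00296). Ppp1r15a, the phosphatase subunit that restores translation, also fell in both (-1.12 ± 0.14, adjusted p = 0.00156 and -1.18 ± 0.17, adjusted p = 0.00322). Asns, asparagine synthetase, had 0.18 ± 0.14, adjusted p = 0.354 in Cbfa2t2_KO and 0.38 ± 0.18, adjusted p = 0.141 in H3.3K27M. Between H3.3K27M and Cbfa2t2_KO 1 of the 17 passed as higher and 0 as lower, beside 3.12% and 4.68% of all genes tested. The fall of Cebpb in H3.3K27M no longer passed without H3.3WT replicate 2 (-1.01). Without H3.3WT replicate 2 the fall of Ddit3 in H3.3K27M no longer passed (-0.86), nor did it without H3.3K27M replicate 1 (-0.84), and 6 rather than 10 of the 17 fell in H3.3K27M without H3.3WT replicate 2. FPKM measures mRNA and not translation or protein.

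The genes of this list that rose are named after their values were seen. Ddit4, an inhibitor of mTORC1 signalling, was 241 and 227 FPKM in H3.3WT, 489 and 569 in Cbfa2t2_KO and 534 and 517 in H3.3K27M. It rose in both groups (1.17 ± 0.15, adjusted p = 0.00146 in Cbfa2t2_KO and 1.17 ± 0.18, adjusted p = 0.00388 in H3.3K27M), and the H3.3K27M call was lost without H3.3WT replicate 2 (1.12). Eif2ak3, which encodes PERK itself, rose in Cbfa2t2_KO (0.57 ± 0.17, adjusted p = 0.0351) and did not pass in H3.3K27M (0.56 ± 0.21, adjusted p = 0.0833). It no longer passed in Cbfa2t2_KO without H3.3WT replicate 1 (0.64) or 2 (0.50) and without Cbfa2t2_KO replicate 1 (0.55) or 2 (0.60). Slc7a11, a cystine transporter gene, rose in H3.3K27M (0.64 ± 0.18, adjusted p = 0.035), a call lost without H3.3WT replicate 1 (0.68) or 2 (0.60) and without H3.3K27M replicate 1 (0.70) or 2 (0.58).

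Of 9 tested genes for ATF6 processing, related bZIP factors and NF-Y, 6 fell and 1 rose in Cbfa2t2_KO, and 6 fell in H3.3K27M. Mbtps2, the site-2 protease gene and one of those that fell in Cbfa2t2_KO, averaged under 1 FPKM there and passed the filter through H3.3WT. The shares of all genes tested were 13.1% higher and 21.5% lower in Cbfa2t2_KO, and 8.42% and 17.8% in H3.3K27M. Mbtps1, the site-1 protease that cuts ATF6, was 31.2 and 33.8 FPKM in H3.3WT, 16.7 and 19.2 in Cbfa2t2_KO and 20.7 and 14.02 in H3.3K27M. All H3.3WT values were above the others (-0.82 ± 0.15, adjusted p = 0.00479 in Cbfa2t2_KO and -0.89 ± 0.21, adjusted p = 0.0163 in H3.3K27M). Creb3l1, an ER-anchored bZIP factor, also fell in both (-1.22 ± 0.16, adjusted p = 0.00152 and -1.02 ± 0.22, adjusted p = 0.0119). Atf6b, the ATF6 paralog, was lower in H3.3K27M than in Cbfa2t2_KO (-0.83 ± 0.14, adjusted p = 0.0165) and than in H3.3WT (-0.70 ± 0.16, adjusted p = 0.0148). The H3.3K27M calls of Mbtps1 and Creb3l1 were lost without H3.3WT replicate 1 (-0.95 and -0.94), H3.3WT replicate 2 (-0.83 and -1.10) or H3.3K27M replicate 2 (-0.62 and -0.75). The call of Atf6b against H3.3WT was lost without H3.3WT replicate 1 (-0.69) or 2 (-0.71) or H3.3K27M replicate 2 (-0.69), and that against Cbfa2t2_KO without Cbfa2t2_KO replicate 1 (-0.87), Cbfa2t2_KO replicate 2 (-0.78) or H3.3K27M replicate 2 (-0.82).

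Of other genes listed for ER folding and redox chemistry, 7 of 24 rose and 0 fell in Cbfa2t2_KO, and 3 of 25 rose and 2 fell in H3.3K27M. The list also holds Sdc2 and Saraf, which are not folding or redox genes and passed in no comparison. Ero1lb, one of the 7, and Fkbp7, one of the 3, averaged under 1 FPKM in H3.3WT and passed the filter only through the other group. Counts in this paragraph stand beside 13.1% of all genes higher and 21.5% lower in Cbfa2t2_KO, and 8.42% and 17.8% in H3.3K27M. Pdia5, another disulfide isomerase, was 14.1 and 9.21 FPKM in H3.3WT, 30.7 and 29.7 in Cbfa2t2_KO and 22.4 and 26.4 in H3.3K27M. It was higher in all 4 libraries of the other groups (1.33 ± 0.20, adjusted p = 0.00246 and 1.03 ± 0.22, adjusted p = 0.0119). Serp1, a translocon-associated stress protein, rose in Cbfa2t2_KO (0.77 ± 0.17, adjusted p = 0.013), and the oxidase gene Ero1l rose in both groups (0.65 ± 0.18, adjusted p = 0.0294 and 0.97 ± 0.19, adjusted p = 0.0082). Of 25 other ERAD genes 5 rose and 9 fell in Cbfa2t2_KO, and 1 rose and 6 fell in H3.3K27M. Among them, the ligase gene Rnf139 fell in both groups (-1.28 ± 0.20, adjusted p = 0.00293 and -0.62 ± 0.19, adjusted p = 0.0432), as did the lectin gene Os9 (-0.47 ± 0.14, adjusted p = 0.0357 and -1.05 ± 0.17, adjusted p = 0.00492). Herpud2 also fell in both (-1.23 ± 0.19, adjusted p = 0.0028 and -0.79 ± 0.19, adjusted p = 0.0201). Erlec1 rose in both (0.79 ± 0.17, adjusted p = 0.0109 and 0.64 ± 0.18, adjusted p = 0.0322). Left-out fits are not given here for Herpud2 and Erlec1. These ERAD counts moved with scaling: with median-of-ratios scaling 5 rose and 3 fell in Cbfa2t2_KO, and 2 rose and 2 fell in H3.3K27M. The fall of Rnf139 in H3.3K27M no longer passed with that scaling (-0.49), nor without H3.3WT replicate 1 (-0.74) or 2 (-0.50) or H3.3K27M replicate 1 (-0.57) or 2 (-0.67). The fall of Os9 in Cbfa2t2_KO no longer passed with it either (-0.35), nor without H3.3WT replicate 1 (-0.44) or 2 (-0.51) or Cbfa2t2_KO replicate 1 (-0.42) or 2 (-0.52). Serp1 was no longer called without H3.3WT replicate 1 (0.60) or Cbfa2t2_KO replicate 1 (0.62), Pdia5 in H3.3K27M without H3.3WT replicate 2 (0.75) or H3.3K27M replicate 2 (0.92), and Ero1l in H3.3K27M without H3.3WT replicate 1 (0.92) or 2 (1.02). The call of Ero1l in Cbfa2t2_KO was lost without H3.3WT replicate 1 (0.60) or 2 (0.70) or Cbfa2t2_KO replicate 1 (0.41).

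Of 20 other translocon, signal peptidase and signal recognition genes, 4 rose and 3 fell in Cbfa2t2_KO and 3 rose in H3.3K27M, among them Srp54a, which averaged under 1 FPKM in H3.3WT and passed the filter through H3.3K27M. For these and the next lists, all genes tested had 13.1% higher and 21.5% lower in Cbfa2t2_KO, and 8.42% and 17.8% in H3.3K27M. Srprb, a subunit of the signal recognition particle receptor, fell in Cbfa2t2_KO (-1.34 ± 0.13, adjusted p = 0.000846). For the oligosaccharyltransferase and glucosidase list the counts were 5 higher and 4 lower of 17 in Cbfa2t2_KO and 2 higher and 2 lower in H3.3K27M. That list and its counts also hold the mannosidase gene Man1b1 and the cargo receptor genes Lman1 and Mcfd2. Ostc was higher in both groups (0.97 ± 0.13, adjusted p = 0.0018 and 0.92 ± 0.16, adjusted p = 0.00605). Of 20 genes of cargo receptors and the COPII coat, which carries cargo out of the ER, 6 rose and 2 fell in Cbfa2t2_KO. In H3.3K27M 1 rose and 3 fell. The one that rose in both was Sec24d, a cargo adaptor, at 4.5 and 4.72 FPKM in H3.3WT, 19.5 and 18.4 in Cbfa2t2_KO and 14.8 and 10.7 in H3.3K27M. The groups were separate (1.83 ± 0.15, adjusted p = 0.000435 and 1.27 ± 0.21, adjusted p = 0.00463). Ostc in H3.3K27M was no longer called without H3.3WT replicate 2 (0.88). With median-of-ratios scaling the oligosaccharyltransferase and glucosidase list had 7 higher and 1 lower in Cbfa2t2_KO. The COPII and cargo receptor list then had 1 higher and 1 lower in H3.3K27M.

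Chaperones of other compartments were counted in the same way, beside 13.1% of all genes higher and 21.5% lower in Cbfa2t2_KO, and 8.42% and 17.8% in H3.3K27M. Of 20 genes listed as cytosolic chaperones 6 rose and 3 fell in Cbfa2t2_KO (median 0.013), and 7 rose and 3 fell in H3.3K27M (median 0.277). The transcription factor gene Hsf1 is in this list and passed in no comparison. Hsp90aa1, the cytosolic counterpart of Hsp90b1, was 61.1 and 86.4 FPKM in H3.3WT, 66.2 and 41.7 in Cbfa2t2_KO and 147 and 152 in H3.3K27M. It was higher in H3.3K27M than in either other group (1.03 ± 0.20, adjusted p = 0.00825 against H3.3WT and 1.49 ± 0.24, adjusted p = 0.0142 against Cbfa2t2_KO). Of 11 genes listed as mitochondrial chaperones 2 rose and 2 fell in Cbfa2t2_KO and 2 rose and 3 fell in H3.3K27M. The list also holds the protease genes Clpp and Lonp1, and Clpp is one of the 3 that fell. Hspd1 rose in both groups (0.51 ± 0.17, adjusted p = 0.048 and 1.35 ± 0.17, adjusted p = 0.00196). The Cbfa2t2_KO call of Hspd1 was lost without H3.3WT replicate 1 (0.46) or 2 (0.57) or Cbfa2t2_KO replicate 1 (0.30). The call of Hsp90aa1 against H3.3WT was lost without H3.3WT replicate 1 (0.79), and that against Cbfa2t2_KO without Cbfa2t2_KO replicate 2 (1.17) or H3.3K27M replicate 2 (1.47).

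**Figure D5:**
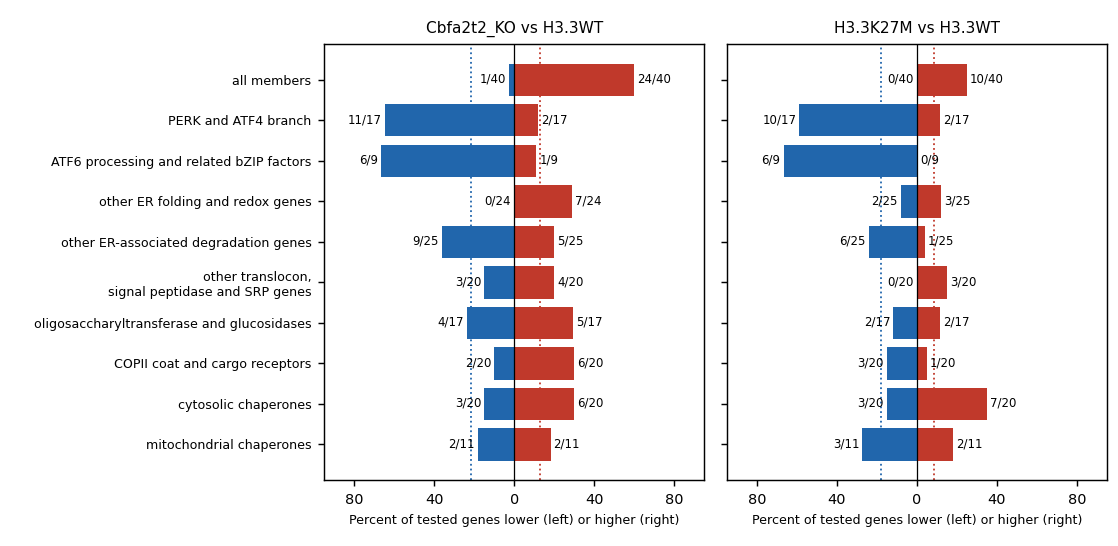
Percent of the tested genes of each list that were lower (left) or higher (right) than H3.3WT at an adjusted p under 0.05, for Cbfa2t2_KO and H3.3K27M, with the counts beside the bars and dotted lines at the percent of all genes tested. The bars of the PERK and ATF4 branch point mainly left (11 of 17 and 10 of 17), and those of the 40 chosen genes (all members) right (24 and 10).

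Markers of cell types also moved between the groups. The neural stem and progenitor list summed to 214 to 223 FPKM in H3.3WT, 142 to 149 in Cbfa2t2_KO and 167 to 179 in H3.3K27M, with 5 of its 10 tested genes lower and 2 higher in each comparison with H3.3WT. Sox9, one of those lower in H3.3K27M, averaged under 1 FPKM there. Among all genes tested, 21.5% were lower and 13.1% higher in Cbfa2t2_KO, and 17.8% lower and 8.42% higher in H3.3K27M. The neuron list, of which 4 genes were listed, summed to 78.4 to 81.0 FPKM in H3.3WT, 139 to 155 in Cbfa2t2_KO and 80.8 to 83.6 in H3.3K27M, and most of it was Tubb3. Of the 4, 1 passed as higher in Cbfa2t2_KO and 1, Rbfox3, as lower in H3.3K27M (-0.74 ± 0.17, adjusted p = 0.0153). Rbfox3 had means of 1.74, 1.16 and 0.636 FPKM in the same order, and its change in Cbfa2t2_KO did not pass (-0.34 ± 0.16, adjusted p = 0.13). Of 10 markers of professional secretory cells, which make much ER, 3 were listed, and they summed to 15.3 to 18.1 FPKM in H3.3WT, 10.6 to 11.7 in Cbfa2t2_KO and 9.57 to 10.2 in H3.3K27M. Most of this sum was Sdc1, with means of 14.9, 8.64 and 7.11 FPKM in the same order. Prdm1 went the other way (1.28, 2.17 and 2.45), with changes that did not pass, and Mzb1 was under 1 FPKM in every library. The 3 mesenchymal markers with a value in all 6 libraries, Col1a2, Col3a1 and Thy1, summed to 7.54 to 9.05, 8.98 to 9.15 and 11.3 to 12.8 FPKM in the same order. Col1a1, which has no value in the H3.3K27M columns, was 0.339 and 0.285 FPKM in H3.3WT and 1.81 and 1.76 in Cbfa2t2_KO. The 2 listed astrocyte markers summed to 13.4 to 13.9, 9.41 to 9.92 and 11.4 to 13.4 FPKM and moved in opposite directions. Aldh1l1 was higher than H3.3WT in Cbfa2t2_KO and H3.3K27M (1.09 ± 0.19, adjusted p = 0.00463 and 1.04 ± 0.20, adjusted p = 0.00821), and Slc1a3 was lower in both (-1.26 ± 0.17, adjusted p = 0.00195 and -0.63 ± 0.19, adjusted p = 0.0421). Left-out and rescaled fits are not given here for the marker genes. Oligodendrocyte lineage markers summed to 1.95 to 1.99, 2.87 to 3.93 and 1.6 to 2.47 FPKM. Gfap, Aqp4 and S100b were not listed, and Cd68 was the one microglial marker listed, at 1.18 to 1.24, 3.82 to 4.37 and 2.53 to 2.6 FPKM. The part of cell type in the changes of the 40 genes was not tested.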

How the data were processed

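The authors deposited FPKM per gene in a pair of tables, each holding the H3.3WT libraries beside those of 1 other group. Poly(A) RNA was sequenced, per the labels' protocols. Trim Galore, HISAT2, StringTie and DESeq on GRCm38 are named, without roles, per the submitters' processing notes. Which annotation release they used was not given in the sources here. For the 14082 genes the tables share, H3.3WT was the same in each, and 0 columns of sample values were left unused. No row had a maximum under 0.5 FPKM. Low values scaled by GENCODE vM21 transcript lengths showed no common step of 1 read. Because the lengths the submitters used are not known, this cannot tell if the values came from whole reads. Depth is unknown, and no count test was run.

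Each comparison was fitted with limma 3.58.1 (R 4.3.3) on log2(FPKM + 1), keeping genes that averaged 1 FPKM or more over the fitted libraries (a gene can pass through 1 group), with moderated variances and a trend, and Benjamini-Hochberg adjustment over all genes tested, at a threshold of 0.05. The comparisons with H3.3WT used 4 libraries each and H3.3K27M against Cbfa2t2_KO all 6. With 2 libraries a group, an exact permutation test cannot go below p = 0.333. The fit was tested on simulated data.

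The 40 genes and the pathway and marker lists were chosen with earlier results of these data known. Genes of the 40 are given with every library's value if they passed in at least 1 comparison with a log2 change of at least 0.58 either way, or are sensors or transcription factors. Of each other list at most the 3 called genes with the largest absolute change are named per comparison, besides Atf4, Ddit3, Trib3 and Asns. Replicates were numbered in accession order, except that those of H3.3K27M take the numbers in their column names, which give the letter M and match no single sample's label. Coordinates come from GENCODE vM21 and promoter windows from RefSeq (GRCm38.p6), searched with Python 3.11.15. Figures were drawn with matplotlib 3.10.9.

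Alternatives were a pseudocount of 0.1, no filter, a minimum of 5 FPKM, median-of-ratios and quantile scaling, other variance settings, another set of libraries in the fit, a log2 change of at least 1, GC and length correction, and each library left out. A correction that also held exon number was chosen after seeing the data.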

Additional observations from a re-analysis of the deposited data

Results flagged for a closer look

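Sdf2l1 and Derl3 were flagged because their changes from H3.3WT differed between Cbfa2t2_KO and H3.3K27M in the fit of all 6 libraries, by -1.24 and -1.70 on the log2 scale, the largest such differences among the 40 genes. Ern1 and Txndc5 were flagged because both Cbfa2t2_KO libraries lay above, and both H3.3K27M libraries below, the H3.3WT pair. The difference between those groups was -0.57 for Ern1, which did not pass, and -0.82 for Txndc5, which did. None of these was compared with further libraries, and no cause was tested.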

How the results depend on the processing

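No paired analysis was possible because the labels carry no replicate numbers. In Cbfa2t2_KO against H3.3WT, the median of the 40 genes was 0.818 with median-of-ratios scaling and 0.568 with a correction for exon number besides length and GC, chosen after seeing the data. A log2 change of at least 1 left 1073 genes, 10 of the 40 higher and 0 lower. With each library left out in turn, 1918 to 3013 genes were called, 17 to 20 of the 40 were higher, 0 to 1 lower, and the median was 0.584 to 0.76. In H3.3K27M against H3.3WT, 1 of the 40 was lower with a minimum of 5 FPKM, quantile scaling or robust variances, and 2 with all 6 libraries in the fit or either composition correction. The median was 0.38 with the 5 FPKM minimum, 0.439 with median-of-ratios scaling, 0.411 with quantile scaling and 0.404 with GC and length correction, which called 17 of the 40 higher. A log2 change of at least 1 left 987 genes and 2 of the 40 higher. With each library left out, 980 to 2637 genes were called, 3 to 11 of the 40 were higher, 0 to 1 lower, and the median was 0.3 to 0.364. In H3.3K27M against Cbfa2t2_KO, the fit of 4 libraries called 554 genes and 5 of the 40 lower, and a log2 change of at least 1 left 232 and 2. With each library left out, 30 to 794 genes were called, 0 of the 40 were higher, 1 to 9 lower, and the median was -0.42 to -0.35. Atf6, not called there, ranged from -0.28 without H3.3K27M replicate 1 to 0.18 without H3.3K27M replicate 2, and was 0.09 without Cbfa2t2_KO replicate 1. With 1 mismatch allowed, 14 promoter windows held an element in place of 9. A fold minimum, and the lone library that a left-out replicate leaves in a group, assumed to vary like the others, limit calls by construction. The cause of the other shifts was not tested. FPKM without depth limits what can be said of genes near 1 FPKM, such as Ern1 and Derl3.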
